A study of Mus musculus with 6 samples.

Results

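The genes described here are 36 genes of the red cell lineage, taken as a fixed list of names: the adult globins, the enzymes of heme synthesis, carriers of iron and glycine, erythroid transcription factors, the erythropoietin receptor, blood group proteins, the membrane skeleton, red cell enzymes and genes of late maturation. They were matched by symbol to the 47729 genes of the count table, and 35 of the 36 had a row. Ahsp, which encodes the chaperone of free alpha globin, was not matched and is not analysed here. All 35 passed the filter on low counts and were among 15330 genes tested.

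Red cells are made from erythroid progenitors that respond to erythropoietin, switch on Gata1, Tal1 and Klf1, take up iron through the transferrin receptor, and fill with hemoglobin, a tetramer of alpha and beta globin chains that each hold a heme. Heme is built by a chain of enzymes that starts and ends in the mitochondrion. In mice the red pulp of the spleen remains a site of red cell production in adult life, next to the bone marrow, and it also stores and clears red cells, so whole spleen RNA holds transcripts of erythroid precursors and young red cells.

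Whole spleens of 3 NOD.B10 and 3 BL/10 female mice were compared to learn how the spleen of a strain with a Sjögren-like disease differs from that of a healthy strain. NOD.B10 (NOD.B10Sn-H2b/J) is a congenic strain with the NOD background and an H2b major histocompatibility haplotype, and its mice had clinical disease; BL/10 (C57BL/10) mice were untreated controls that share the H2b haplotype. Each library came from 1 mouse, and the strains differ over much of the genome, so strain and disease cannot be told apart. The strain of a library was read from its description and its column name. The titles and strain fields give the reverse for all 6 libraries, and every direction below would turn under them. The labels give an age of 26 weeks for the NOD.B10 libraries and BL/10 replicate 1 and of 36 weeks for BL/10 replicates 2 and 3, whereas the methods of the study give one age for all mice, so an age difference within BL/10 cannot be told apart from a difference between mice.

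Libraries held between 15662712 and 18298451 counts, and counting error was small against the spread between mice. In all lists of marker genes of spleen cells (T, B and plasma cells, neutrophils, red pulp macrophages and megakaryocytes) no gene was at 0 in every library. Transcripts of pancreas acinar cells, an organ that touches the spleen, made up 1.36%, 0.198% and 0.0108% of the counts of BL/10 replicates 1, 2 and 3 and at most 0.0032% in NOD.B10.

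The globin genes come in near-identical pairs, and this bears on how reads were divided between them. Hba-a1 (ENSMUSG00000069919) and Hba-a2 (ENSMUSG00000069917) lie on chromosome 11 of build GRCm38, and their coding sequences of 429 bases differ at 1 position, C381T, counted from 1 at the first coding base with the base of Hba-a1 first. The base lies in exon 3, at position 32284343 in Hba-a1 and 32297160 in Hba-a2. Hbb-bs (ENSMUSG00000052305) and Hbb-bt (ENSMUSG00000073940) lie on chromosome 7, on the minus strand, and their 444 coding bases also differ at 1 position, C417T, in exon 3, at 103826692 in Hbb-bs and 103812683 in Hbb-bt. The stretches of coding sequence around these positions are shown because a read of 50 bases within the coding sequence can be given to 1 copy only if it covers the base in capitals.
Hba-a1, chr11:32284294-32284391, plus strand: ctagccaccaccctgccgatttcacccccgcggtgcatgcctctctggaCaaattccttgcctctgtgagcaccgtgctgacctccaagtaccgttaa
Hba-a2, chr11:32297111-32297208, plus strand: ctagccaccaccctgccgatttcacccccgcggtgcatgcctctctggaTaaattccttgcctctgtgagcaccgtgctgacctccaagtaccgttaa
Hbb-bs, chr7:103826665-103826741, minus strand: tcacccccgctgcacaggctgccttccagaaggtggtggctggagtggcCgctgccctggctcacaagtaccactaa
Hbb-bt, chr7:103812656-103812732, minus strand: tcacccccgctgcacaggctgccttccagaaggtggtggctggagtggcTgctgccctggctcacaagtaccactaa
Of the 380 possible 50-base windows in the alpha coding sequence, 49 (12.9%) differed between the copies, and of 395 in the beta coding sequence, 28 (7.09%) did. The remaining coding windows are shared, and reads that match several places are left out by the counting settings. The counts of a single copy therefore rest on a small part of its transcript and on the untranslated ends, and the level of alpha globin is better read from the sum of the copies, though that sum too leaves out the shared reads.

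Erythroid transcripts took a large and variable share of spleen RNA. The 35 genes held 4.91%, 5.85% and 3.42% of all counts in NOD.B10 replicates 1, 2 and 3 and 3.67%, 6.94% and 7.93% in BL/10 replicates 1, 2 and 3. The strains overlapped, because BL/10 replicate 1 lay among the NOD.B10 libraries, and the difference was within the spread (exact permutation test, two-sided, p = 0.4, adjusted p = 0.5 over 5 tests; 3 libraries against 3 cannot give a p below 0.1). The 4 globins alone held between 64.5% and 73.4% of these counts in every library.

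Of the 35 genes, 2 passed the test of the strain difference, Hba-a2 and Slc25a38, both lower in NOD.B10 (edgeR's quasi-likelihood test, Benjamini-Hochberg adjusted p under 0.05 over all genes tested). Over all genes, 8.22% were called lower and 9.11% higher in NOD.B10, so the number of erythroid genes called was close to the background. None was called higher by edgeR, DESeq2 or limma-voom, and none that lay above 0 had an unadjusted p under 0.05. The log2 fold changes (NOD.B10 against BL/10) nevertheless lay to one side, with 32 of 35 below 0, against 49.9% of all genes, and with a median of -0.71, against 0.00 for all genes. At an unadjusted p under 0.05 there were 15 of the 35 genes, all lower in NOD.B10, against 17.0% of all genes tested that were lower at this limit. DESeq2 called 14 of the 35 lower, against 11.2% of all genes. The counts given below for each role at an unadjusted p and by DESeq2 are to be read against these shares of 17.0% and 11.2%. The NOD.B10 and BL/10 libraries did not overlap for 1 gene, Hba-a2, whereas all NOD.B10 libraries lay below all BL/10 libraries for 17.5% of genes tested. In a bulk sample, fewer erythroid cells and less RNA per cell cannot be told apart.

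Hba-a2, the second adult alpha globin copy, showed the widest difference. It was read 124, 148 and 95 times in NOD.B10 replicates 1, 2 and 3 and 34373, 59142 and 84646 times in BL/10 replicates 1, 2 and 3, or 7.42, 9.09 and 5.34 CPM (counts brought by TMM normalization to the same depth in every library) against 1867, 3966 and 4809.9 CPM. Every NOD.B10 library was thus far below every BL/10 library, and the log2 fold change was -8.93 (SE 0.48, adjusted p = 4.54e-05), or 487-fold. The first copy, Hba-a1, had 5773, 7384 and 4509.7 CPM in NOD.B10 and 2364, 5386 and 6888 CPM in BL/10, the strains overlapped, and the log2 fold change was 0.27 (SE 0.37, adjusted p = 0.644).

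As a share of the counts of both alpha copies, Hba-a2 made up 0.128% (95% exact binomial interval 0.107 to 0.153), 0.123% (0.104 to 0.144) and 0.118% (0.0957 to 0.144) in NOD.B10. In BL/10 its share was 44.1% (43.8 to 44.5), 42.4% (42.1 to 42.7) and 41.1% (40.9 to 41.3). The share hardly varied within a strain, 0.123% ± 0.00504 (SD, n = 3) against 42.5% ± 1.51 (SD, n = 3), although the total alpha level differed by over 2-fold between BL/10 mice. The exact permutation test of the share gave p = 0.1, the smallest possible, and an adjusted p of 0.5. These intervals cover counting error only. Which base NOD.B10 mice carry at the position that separates the copies cannot be read from counts per gene. In the reference, 66 of 505 50-base windows of the Hba-a2 transcript were absent from Hba-a1. Within the coding sequence it was 49 of 380, all of which cover that base. How far the low Hba-a2 counts come from the division of reads between the copies was not tested.

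**Figure D1:**
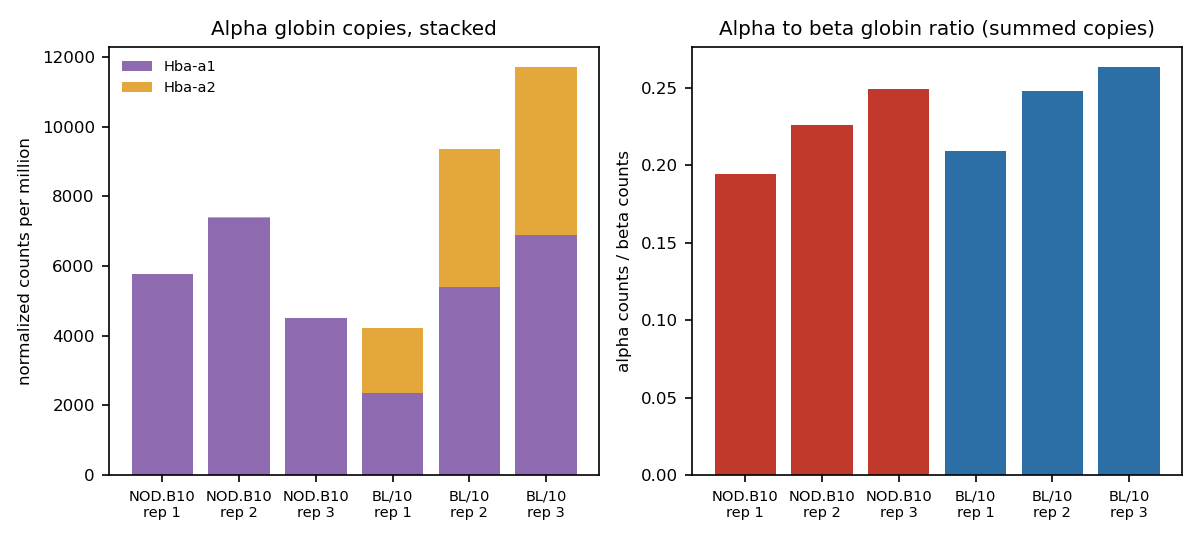
Left, TMM-normalized CPM of Hba-a1 and Hba-a2 stacked for each library; right, the ratio of summed alpha counts to summed beta counts in each library. Hba-a2 is between 5.34 and 9.09 in NOD.B10, too small to see at this scale, and between 1867 and 4809.9 in BL/10, while the alpha to beta ratio lies between 0.194 and 0.263 in all 6 libraries.

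Summed over both copies, alpha globin was 5780.0, 7393 and 4515 CPM in NOD.B10 and 4231, 9352 and 11698 CPM in BL/10. The strains overlapped on both sides. With the copies of each globin summed before the fit, an alternative chosen after seeing the data, the log2 fold change of alpha globin was -0.52 (edgeR adjusted p = 0.35) in place of a value of 0.27 for Hba-a1 alone, and Slc25a38 was then the single erythroid gene called, against 8.23% of all genes called lower.

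The beta globins had the highest counts of the erythroid genes. Over the whole transcript, 34.2% of the 50-base windows of Hbb-bs and 41.7% of those of Hbb-bt were absent from the other copy. For Hba-a1 and Hba-a2 these shares were 32.5% and 13.1%. Reads shared by the copies were left out, so this ranking and the alpha to beta ratio below describe counted reads only. Hbb-bs had 21446, 23554 and 12974 CPM in NOD.B10 and 15307, 27307 and 32034 CPM in BL/10, with a log2 fold change of -0.36 (SE 0.33, adjusted p = 0.47). Hbb-bt had 8275, 9097 and 5112 CPM against 4923, 10396 and 12384 CPM, and a log2 fold change of -0.30 (SE 0.36, adjusted p = 0.589). In both genes BL/10 replicate 1 lay below NOD.B10 replicates 1 and 2. The ratio of Hbb-bs to Hbb-bt counts was 2.59, 2.59 and 2.54 in NOD.B10 and 3.11, 2.63 and 2.59 in BL/10, a difference within the spread (exact permutation test, p = 0.3, adjusted p = 0.5). The balance of alpha and beta globin counts, with the copies summed, overlapped between the strains, while the counts given to Hba-a2 were far lower in NOD.B10. The ratio of alpha to beta counts was 0.194, 0.226 and 0.25 in NOD.B10 and 0.209, 0.248 and 0.263 in BL/10, or 0.224 ± 0.0277 against 0.24 ± 0.028 (SD, n = 3 each; exact permutation test, p = 0.6, adjusted p = 0.6).

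The 7 genes of heme synthesis all lay below 0, with log2 fold changes from -0.93 to -0.36 and a median of -0.69, and none was called (4 at an unadjusted p under 0.05, 3 called by DESeq2). Alas2, the erythroid enzyme that starts the pathway, was the most abundant, with 2143, 2421 and 1283 CPM in NOD.B10 and 1520.5, 2812 and 3873 CPM in BL/10. Its libraries overlapped, and the log2 fold change was -0.49 (SE 0.36, adjusted p = 0.368). Of its exon bases, 15.5% overlap other genes, and reads there are left out by the counting settings. The later steps were lower in level. Alad, which joins the first product into porphobilinogen, was at 247, 355 and 218 CPM against 275, 566 and 500.4 CPM. Uros, which closes the ring, was at 79.2, 122 and 83.7 CPM against 106, 225 and 178 CPM, and its log2 fold change was -0.83 (SE 0.28, adjusted p = 0.0791). Urod and Cpox, which trim the side chains, had log2 fold changes of -0.69 (adjusted p = 0.134) and -0.54 (adjusted p = 0.252). Ppox, the oxidase before the last step, had the largest difference of the pathway, with 80.1, 117 and 69.5 CPM against 101, 211 and 195 CPM and a log2 fold change of -0.93 (SE 0.30, adjusted p = 0.0699), with 17.5% of its exon bases shared with a neighbouring gene. Fech, which inserts the iron, had the smallest, -0.36 (SE 0.33, adjusted p = 0.481). In all 7 genes, NOD.B10 replicate 2 passed BL/10 replicate 1.

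Slc25a38, the mitochondrial carrier that brings glycine to the first step of heme synthesis, was the other gene called. It had 80.9, 107 and 66.1 CPM in NOD.B10 and 106, 193 and 179 CPM in BL/10, and its log2 fold change was -0.91 (SE 0.25, adjusted p = 0.0445). NOD.B10 replicate 2 and BL/10 replicate 1 were nearly equal, and the call lay close to the threshold: it was lost without NOD.B10 replicate 1 or 3 or BL/10 replicate 2 or 3, with adjusted p between 0.122 and 0.157. Slc25a37 (mitoferrin-1), which brings iron into the mitochondrion, had 919, 1352 and 776 CPM against 682, 1649.6 and 1643 CPM, with a log2 fold change of -0.38 (SE 0.35, adjusted p = 0.476). Tfrc, the transferrin receptor, which dividing cells of other lineages also carry, was at 808, 1344 and 708 CPM against 819, 1757 and 1213 CPM (log2 fold change -0.41, adjusted p = 0.412). Steap3, the reductase that releases endosomal iron, was at 58.6, 89.7 and 65.1 CPM against 44.4, 78.1 and 67.6 CPM, with a log2 fold change of 0.17 (adjusted p = 0.643).

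The 4 transcription factors lay below 0, with a median log2 fold change of -0.68, and none was called (2 at an unadjusted p under 0.05, 2 called by DESeq2). Klf1, the factor that binds CACCC boxes of the beta globin promoter, was the most abundant per length, with 149, 250.5 and 150.1 CPM in NOD.B10 and 159, 341 and 276 CPM in BL/10 (log2 fold change -0.50, SE 0.31, adjusted p = 0.288). Gata1, the master regulator of the lineage, which is also used by megakaryocytes and mast cells, was at 71.4, 107 and 60.0 CPM against 98.7, 183 and 155 CPM (log2 fold change -0.87, SE 0.27, adjusted p = 0.0641). NOD.B10 replicate 2 lay just above BL/10 replicate 1 for Gata1 and well above it for Klf1. Nfe2, which acts at the globin locus control region, had a log2 fold change of -0.86 (adjusted p = 0.0996), and Tal1, the partner of Gata1, one of -0.50 (adjusted p = 0.258). Epor, the receptor through which erythropoietin keeps progenitors alive, was at 55.0, 75.7 and 48.9 CPM against 71.0, 136 and 119 CPM, and its log2 fold change of -0.86 (SE 0.25, adjusted p = 0.0548) just missed the threshold.

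GATA and CACCC letters were searched in the promoters because Gata1 and Klf1 bind such motifs and the erythroid genes varied together across libraries. The 250 bases before the start of each gene were read from RefSeq promoters of build GRCm38.p6 for 27 of the 36 genes (34 promoters); Fech, Slc25a37, Nfe2, Ank1, Slc4a1, Ahsp, Car1, Car2 and Xpo7 had none. A GATA motif was counted as AGATAA with its variant AGATAG or as TGATAA with its variant TGATAG, on either strand, and was found in 52.9% of these promoters, against 26.5% of 32851 promoters of all genes, and CACCC, on either strand, in 70.6%, against 52.0%. Both were found in 44.1%, against 11.8%. A match is a run of letters and not a shown binding site. The upstream sequence of Hba-a2 is shown because this gene had few counts in NOD.B10, and that of Epor because it starts the erythropoietin response; capitals mark the matches.
Hba-a2, chr11:32296242-32296491, plus strand: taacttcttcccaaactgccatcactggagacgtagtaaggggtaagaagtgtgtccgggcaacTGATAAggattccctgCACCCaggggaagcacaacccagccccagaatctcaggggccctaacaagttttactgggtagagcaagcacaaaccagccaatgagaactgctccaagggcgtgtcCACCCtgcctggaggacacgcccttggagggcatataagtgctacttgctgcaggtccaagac
Epor, chr9:21963577-21963826, minus strand: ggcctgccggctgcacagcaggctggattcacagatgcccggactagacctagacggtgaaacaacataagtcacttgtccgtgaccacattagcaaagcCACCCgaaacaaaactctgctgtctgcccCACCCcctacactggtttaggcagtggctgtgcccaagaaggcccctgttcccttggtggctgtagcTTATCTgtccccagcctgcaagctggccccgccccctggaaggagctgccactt
The reference promoter entries of Hba-a1 and Hba-a2 run past these 250 upstream bases into the start of the gene. Over the whole entries, the letters were the same at 297 of 297 bases that could be aligned.

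Of the blood group genes, 3 of 4 lay below 0 and none was called (1 at an unadjusted p under 0.05, 1 called by DESeq2). Ermap, the Scianna blood group protein, was at 225, 359 and 203 CPM in NOD.B10 and 297, 641 and 562 CPM in BL/10 (log2 fold change -0.93, SE 0.32, adjusted p = 0.0826). Kel, the Kell antigen, was at 118, 186 and 109 CPM against 124, 307 and 296 CPM (log2 fold change -0.82, adjusted p = 0.147), and Rhag, the Rh-associated glycoprotein, at 143, 248 and 122 CPM against 174, 391 and 314 CPM (log2 fold change -0.78, adjusted p = 0.157). Rhd, the Rh antigen itself, did not lie below 0 like its partner Rhag, though the difference between these genes was not tested. It was at 198, 309 and 188 CPM in NOD.B10 against 109.7, 279 and 236 CPM in BL/10, with its lowest value in BL/10 replicate 1 and its highest in NOD.B10 replicate 2, and its log2 fold change was 0.15 (SE 0.34, adjusted p = 0.785).

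The 5 genes of the membrane and its skeleton lay below 0, and none was called (2 at an unadjusted p under 0.05, 2 called by DESeq2). Slc4a1 (band 3), the anion exchanger that anchors the skeleton, followed the globins, Alas2 and Car2 in level per length, with 2062, 3113 and 1629.8 CPM in NOD.B10 and 1892, 4975 and 4634 CPM in BL/10. Its log2 fold change was -0.76 (SE 0.38, adjusted p = 0.201), and BL/10 replicate 1 lay below NOD.B10 replicate 1. Ank1, which ties band 3 to spectrin, had a log2 fold change of -0.74 (adjusted p = 0.17), Epb42, its stabilizer, one of -0.97 (adjusted p = 0.107), and Add2, which caps actin filaments, one of -0.99 (SE 0.33, adjusted p = 0.0794). Sptb, beta spectrin, was nearly level, with 454, 663 and 393 CPM against 408, 597 and 532 CPM and a log2 fold change of -0.03 (SE 0.22, adjusted p = 0.946).

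Among the enzymes of mature red cells, Car2, a carbonic anhydrase, was at 1045, 1650.3 and 1116 CPM in NOD.B10 and 1285, 2799 and 2287 CPM in BL/10 (log2 fold change -0.74, SE 0.30, adjusted p = 0.125). Car1, the related isozyme, was nearly level, at 355, 564 and 351 CPM against 393, 587 and 389 CPM (log2 fold change -0.11, adjusted p = 0.782). Bpgm, which makes the phosphate ester that loosens the hold of hemoglobin on oxygen, was at 742, 751 and 443 CPM against 607, 996 and 1252 CPM (log2 fold change -0.56, adjusted p = 0.219). The genes of late maturation had the lowest median of the roles, -0.95, and none was called (2 at an unadjusted p under 0.05, 2 called by DESeq2). Trim58, a ubiquitin ligase used in enucleation, was at 24.6, 32.8 and 15.5 CPM against 28.5, 61.2 and 68.1 CPM (log2 fold change -1.11, SE 0.36, adjusted p = 0.0721). Trim10, needed for terminal differentiation, was at 270.0, 425 and 212 CPM against 308, 710.0 and 732 CPM (log2 fold change -0.95, adjusted p = 0.113), and Xpo7, a nuclear exporter of maturing erythroblasts, had a log2 fold change of -0.57 (adjusted p = 0.328).

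Levels of different genes were compared per kilobase of exon. This length holds all exon bases, whereas only 66 of 505 50-base windows of Hba-a2 and 211 of 650 of Hba-a1 were absent from the other copy. The globin levels per length therefore describe counted reads and do not compare the copies per countable base. Hbb-bs was highest, at 22392 ± 6489 CPM per kb (SD, n = 3) in NOD.B10 and 28832 ± 9992 in BL/10, followed by Hbb-bt at 10661 ± 2993 and 13136 ± 5496 and Hba-a1 at 7252 ± 1774 and 6009 ± 2838. Hba-a2, at 5319 ± 2272 CPM per kb in BL/10, was by this measure within the spread of Hba-a1 in that strain and was at 10.9 ± 2.82 in NOD.B10. Alas2 followed at 811 ± 247 and 1138 ± 490.3 CPM per kb. The lowest levels per length, apart from Hba-a2 in NOD.B10, were those of Steap3 (12.4 ± 2.88 and 11.1 ± 3.01), Trim58 (11.1 ± 3.94 and 24.0 ± 9.66) and Add2 (13.0 ± 4.76 and 26.0 ± 9.57), which did not differ from each other beyond their spread in NOD.B10.

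**Figure D2:**
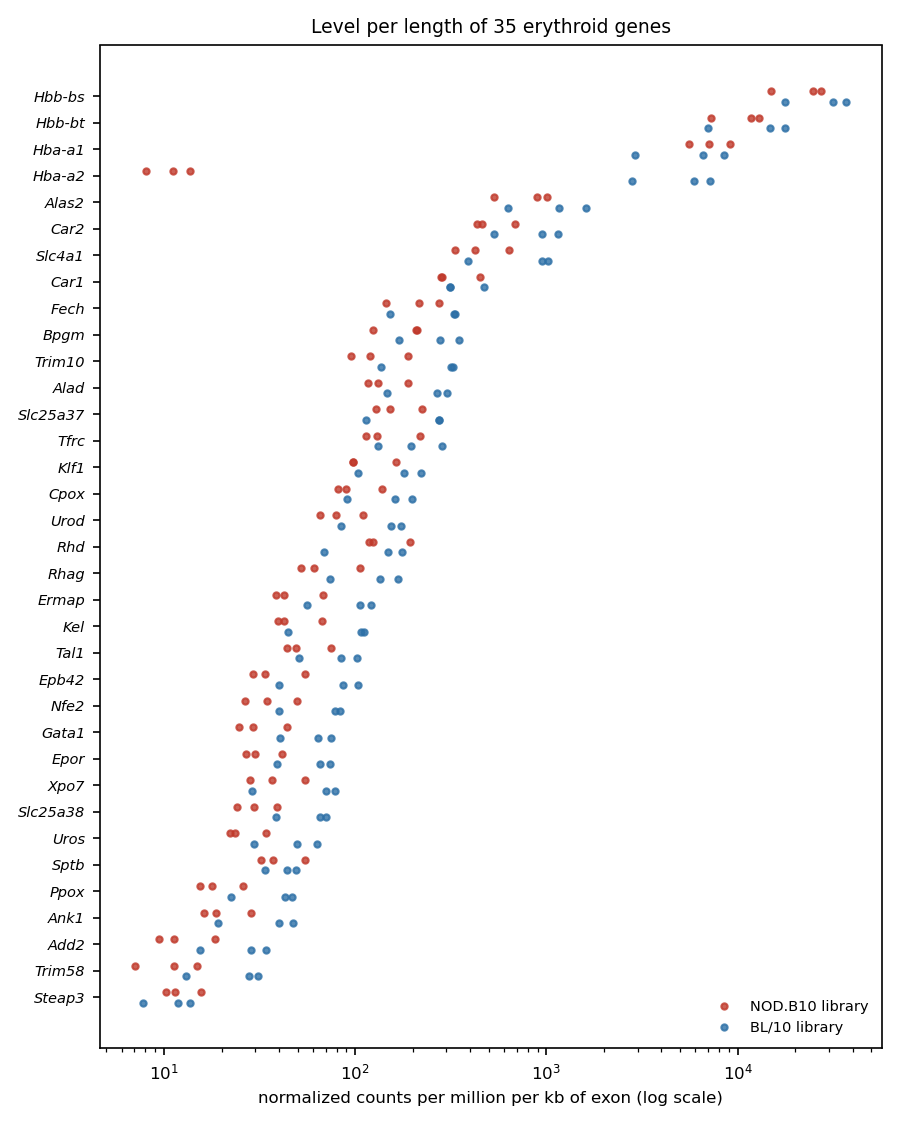
TMM-normalized CPM per kilobase of exon for the 35 erythroid genes, on a log axis, with 1 point for each NOD.B10 library (red) and each BL/10 library (blue). Genes are ordered by their BL/10 mean; the strains overlap for every gene but Hba-a2, whose NOD.B10 mean is 10.9 against 5319 in BL/10.

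The erythroid genes moved together from mouse to mouse. Within NOD.B10, replicate 2 was the highest library for 35 of 35 genes and replicate 3 the lowest for 31, the exceptions being Uros, Steap3, Klf1 and Car2. Within BL/10, replicate 1 was the lowest for 34 of 35, the exception being Car1. Over all 6 libraries, 22 genes were highest in BL/10 replicate 2 and 9 in BL/10 replicate 3. Relative to the geometric mean of each gene over the 6 libraries, and leaving out Hba-a2, the median level was 0.736, 1.10 and 0.626 in NOD.B10 replicates 1, 2 and 3 and 0.785, 1.67 and 1.504 in BL/10 replicates 1, 2 and 3. By this measure BL/10 replicate 1 was closer to NOD.B10 replicate 1 than to the other BL/10 libraries. These genes share libraries and scaling, so their number does not add independent mice. The share of all genes tested with the same order of libraries was not computed.

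**Figure D3:**
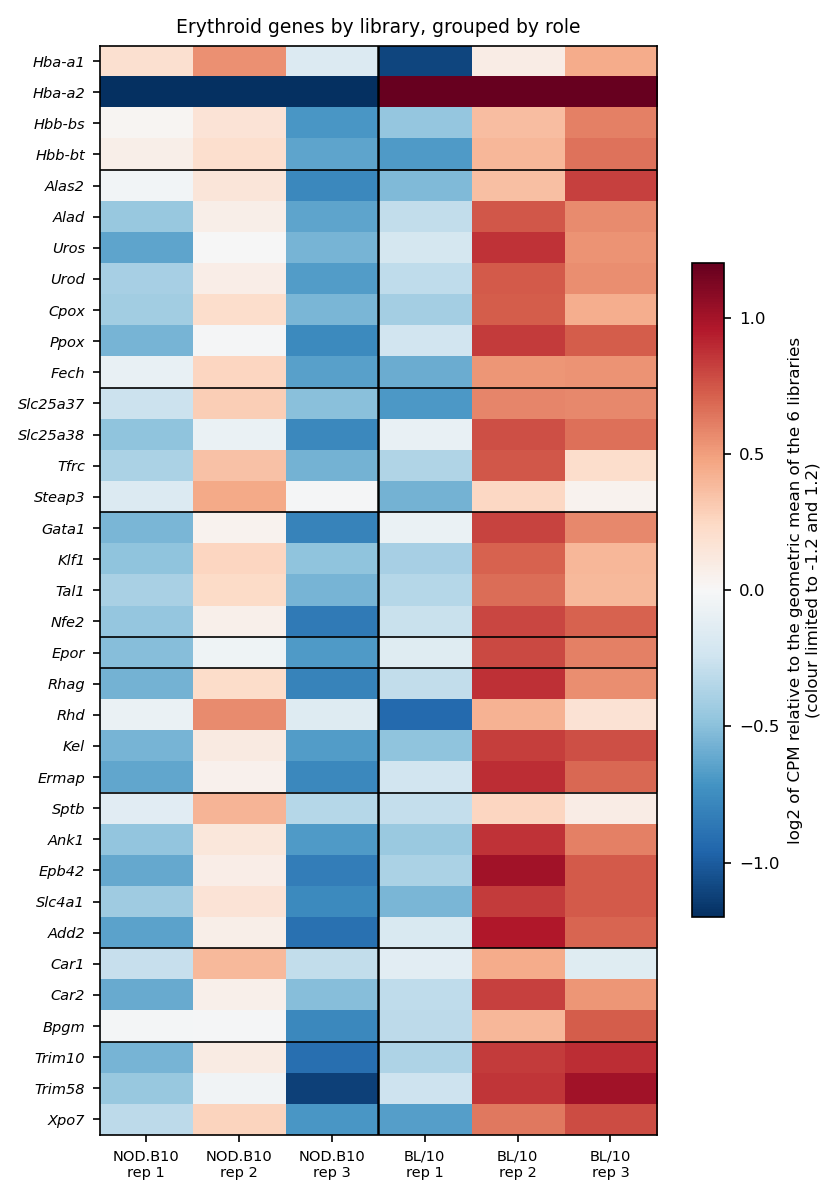
Heat map of 35 erythroid genes (rows, grouped by role with lines between the groups) in 6 libraries (columns); colour is the log2 of CPM relative to the geometric mean of the gene over the libraries, limited to -1.2 and 1.2. BL/10 replicates 2 and 3 are red in nearly all rows, with medians of 0.74 and 0.59 on the log2 scale, and BL/10 replicate 1 is blue in every row but that of Hba-a2, with a median of -0.35, next to -0.44 and -0.68 in NOD.B10 replicates 1 and 3. Only Hba-a2 reaches the colour limit.

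Among the 6 libraries left out in turn, BL/10 replicate 1 changed the number of calls most. Without it, 22 of the 35 genes were called lower in NOD.B10 by edgeR, against 14.0% of all genes, and the median log2 fold change was -0.97. The genes called then were Hba-a2, 5 of the 7 heme enzymes (Alad, Uros, Urod, Cpox and Ppox), Slc25a38, Gata1 and Nfe2, Epor, Rhag, Kel and Ermap, Ank1, Epb42, Slc4a1 and Add2, Car2 and Bpgm, and all 3 maturation genes. The 13 not called included the 3 other globins, Alas2, Fech, Klf1 and Tal1. The remaining BL/10 libraries were then both labelled 36 weeks and the NOD.B10 libraries 26 weeks.

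With only the 4 libraries labelled 26 weeks, which leaves BL/10 replicate 1 as the single control and assumes that it varies like the NOD.B10 libraries, the direction was not kept. The median log2 fold change was 0.11, 20 of 35 genes lay above 0, and 1 gene, Hba-a2, was called lower (log2 fold change -8.01, adjusted p = 1.03e-05), against 3.36% of all genes. None was called higher in that fit, and the largest values above 0 were 1.32 for Hba-a1 (adjusted p = 0.0532) and 1.08 for Rhd (adjusted p = 0.101). The erythroid difference between strains and the label of age therefore cannot be told apart in these libraries, with the exception of Hba-a2, which was called with all libraries and with any 1 of them left out.

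**Figure D4:**
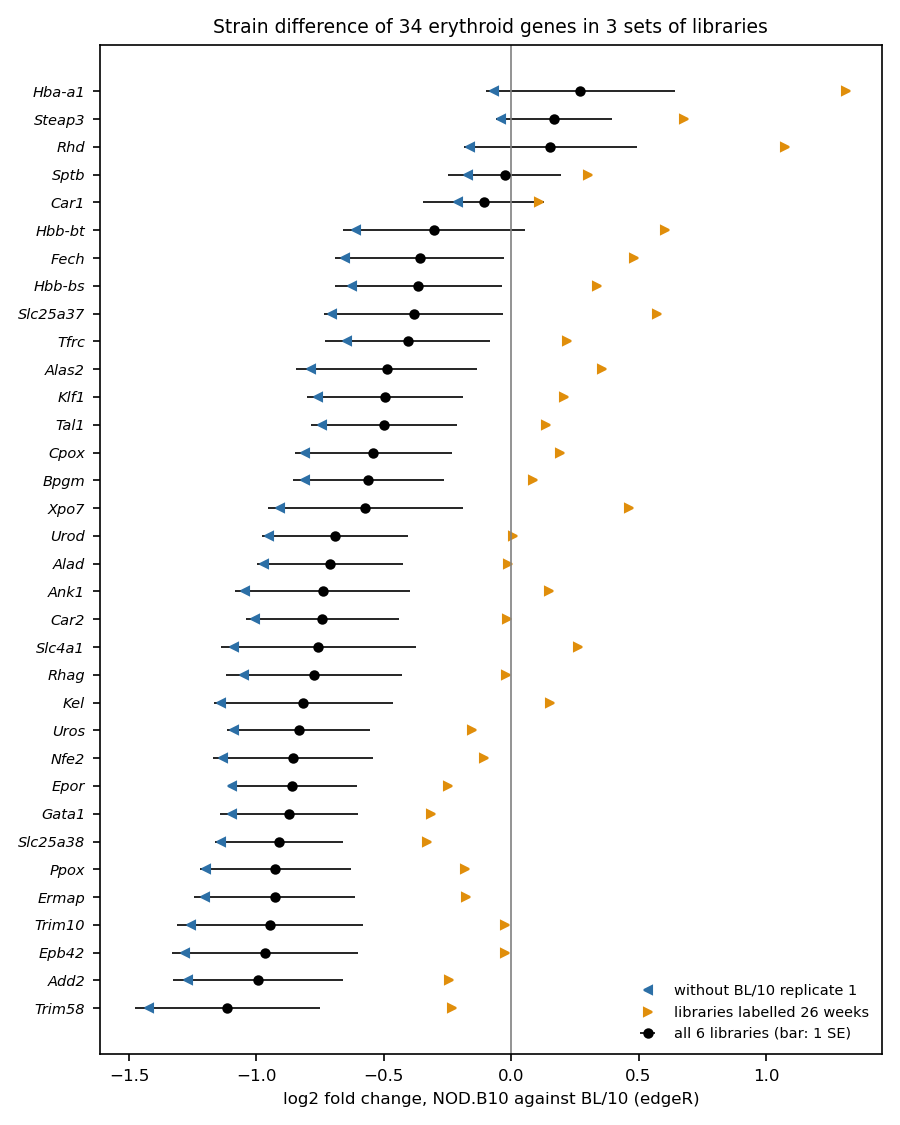
Log2 fold change (NOD.B10 against BL/10) of 34 erythroid genes in all 6 libraries (black, with 1 SE), without BL/10 replicate 1 (blue) and in the libraries labelled 26 weeks (orange); Hba-a2, at -8.93, is left out for scale. Blue points lie left of black and orange points right of black for every gene, with medians over the 35 genes of -0.97, -0.71 and 0.11.

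The choice of method also moved the count. DESeq2, the tool named in the methods of the study, called 14 of the 35 genes lower on the same table, against 11.2% of all genes, namely Hba-a2, Alad, Uros, Ppox, Slc25a38, Gata1, Nfe2, Epor, Ermap, Epb42, Add2, Car2, Trim10 and Trim58. Its log2 fold changes were nearly those of edgeR, with a median of -0.72. With no filter beyond 1 count, edgeR called 9, against 5.89% of all genes. With the libraries rescaled to the erythroid genes themselves, an alternative chosen after seeing the data, the median log2 fold change of all genes was 0.63. That of the erythroid genes, -0.01, was brought near 0 by the scaling itself and is not a finding. Hba-a2 was the single erythroid gene called, against 1.16% of all genes called lower. On that scale, which takes out the shared level of the lineage, Hba-a1 was at 1.03 (adjusted p = 0.143), Rhd at 0.89 (adjusted p = 0.266), Steap3 at 0.86 (adjusted p = 0.282) and Sptb at 0.60 (adjusted p = 0.36), and Trim58 was the lowest after Hba-a2, at -0.41 (adjusted p = 0.508).

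A second list of erythroid genes outside the 36 also lay mostly below 0. Of 88 with a row, 85 were tested, 10 were called lower and 1 higher in NOD.B10, and the median log2 fold change was -0.52. These counts are to be read against 8.22% of all genes called lower and 9.11% called higher. The 1 gene called higher was thus a smaller share than among all genes. Alox15, the lipoxygenase that clears organelles in reticulocytes and that eosinophils and macrophages also make, was at 4.01, 4.48 and 3.82 CPM in NOD.B10 and 20.1, 38.8 and 34.3 CPM in BL/10 (log2 fold change -2.92, SE 0.26, adjusted p = 0.000411). Pklr, the pyruvate kinase of red cells, was at 26.7, 39.4 and 26.6 CPM against 59.4, 99.1 and 77.4 CPM (log2 fold change -1.35, SE 0.22, adjusted p = 0.0065). Myb, a factor of early progenitors of several lineages, was at 22.9, 32.0 and 26.4 CPM against 47.5, 66.6 and 56.7 CPM (log2 fold change -1.07, SE 0.16, adjusted p = 0.00446). Their libraries did not overlap, and BL/10 replicate 1 lay above all NOD.B10 libraries. Nxpe2 (-1.47, adjusted p = 0.0156), Tfr2, the second transferrin receptor (-1.11, adjusted p = 0.0417), Tmem14c, which moves a heme precursor into the mitochondrial matrix (-0.93, adjusted p = 0.0209), Mfsd2b, a lipid exporter of red cells (-0.86, adjusted p = 0.0372), and Cat, catalase (-0.64, adjusted p = 0.0439), were also lower, with the log2 fold changes given. Acp5, an acid phosphatase of macrophages that was placed on this list, was higher, at 412, 388 and 385 CPM against 285, 252 and 296 CPM (log2 fold change 0.51, SE 0.10, adjusted p = 0.0154). It did not follow the library pattern of the erythroid genes, as NOD.B10 replicate 1 was its highest library and BL/10 replicate 2 its lowest.

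Other cell types moved with the strain as well. The counts called in these lists are to be read against 8.22% of all genes called lower and 9.11% called higher. Of 14 neutrophil markers 13 were called lower in NOD.B10, and their summed level was 2259 to 2609 CPM in NOD.B10 and 6315, 13263 and 11567 CPM in BL/10 replicates 1, 2 and 3, so BL/10 replicate 1 was the lowest of its strain here too. Of 18 proliferation markers, which dividing erythroblasts share with other cells, 1 was called lower, all 18 lay below 0, and the median log2 fold change was -0.64; their sum was 3067 to 4678 CPM in NOD.B10 and 3791, 7390 and 5523 CPM in BL/10. Of 13 megakaryocyte markers, some of which share Gata1 control with red cells, 3 were called lower, with a median of -0.58. Their sums were 757 to 1122 CPM in NOD.B10 and 1765, 979 and 1440 CPM in BL/10 replicates 1, 2 and 3. Unlike for the erythroid genes, BL/10 replicate 1 was the highest of its strain for these markers. T cell markers went the other way, with 13 of 15 called higher and sums of 1085 to 1425 CPM against 501 to 663 CPM, as did plasma cell markers, with 6 of 9 called higher and sums of 3356 to 3861 CPM against 2127 to 2706 CPM. Of 12 red pulp macrophage markers, 2 were called in each direction, with sums of 4180.2 to 5375 CPM against 4614 to 5435 CPM. The B cell markers had a median of 0.24 and sums of 4164 to 5403 CPM in NOD.B10 and 5542, 3114 and 3397 CPM in BL/10 replicates 1, 2 and 3. Within BL/10, replicate 1 was also the highest for T cell and plasma cell markers and the lowest for red pulp macrophage markers. The pancreas acinar sum was 22.3 to 31.3 CPM in NOD.B10 and 13517, 2074 and 110.4 CPM in BL/10 replicates 1, 2 and 3, highest in the BL/10 library with the lowest erythroid levels. The part of these cell types in the erythroid differences was not tested.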

How the data were processed

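Spleen RNA of 3 NOD.B10 and 3 BL/10 female mice was prepared by the authors with an RNeasy kit and a TruSeq protocol and read in single 50-base reads on a HiSeq 2500. The deposited values are raw counts per gene and library, which the authors made with featureCounts version 1.5.1 on exons of the Ensembl 84 annotation of GRCm38, without strand and without reads that match several places or genes. The submitters' processing notes name HISAT2 version 2.0.5 and bcl2fastq, whereas the methods of the study name Tophat2. The count table held no columns beyond those of these 6 libraries, so the Myd88-deficient libraries of the same counting run were not analysed here. Symbols were given to 47224 of 47729 genes from GENCODE M21.

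Counts were compared with edgeR version 4.0.16 in R version 4.3.3 (filterByExpr, TMM, quasi-likelihood test, Benjamini-Hochberg adjusted p under 0.05, no covariates, BL/10 as reference). Alternatives used DESeq2 version 1.42.0, limma version 3.58.1 (voom), other scalings and filters, a replicate block, and fewer libraries. On simulated counts modelled on this comparison, 198 of 200 genes changed by 4-fold were recovered and 15 unchanged genes were called, in a run over 15163 genes. The run held no smaller changes. How often differences as small as those of most erythroid genes would be found was not tested. Replicates of a strain differed by 13.7 times the counting error or more (chi-square over its degrees of freedom), so no library appears to have been deposited more than once. The 36 genes, the second erythroid list and the marker lists were chosen with earlier results of these data known. All 36 genes were to be named, with values of each library for those called and for the most abundant of each role, and up to 8 genes in each direction of the second list. Single values were compared by two-sided exact permutation tests.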

Additional observations from a re-analysis of the deposited data

How the results depend on the processing

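The number of erythroid genes called was 2 of 35, all lower in NOD.B10, and no alternative called one higher. It was also 2 with RLE size factors, upper-quartile normalization, limma-voom and a minimum of 10 counts in every library. It was 14 with DESeq2, 9 with no filter beyond 1 count, and 1 at an adjusted p under 0.01, in the 26-week libraries, with the globin copies summed, with libraries scaled to the erythroid genes, and with hemoglobin and immunoglobulin genes left out, where Hba-a2 is itself left out. Leaving out 1 library gave 1 to 22 calls, the highest number without BL/10 replicate 1. For the second erythroid list the count of 11 became 32 with DESeq2, 18 with no filter, 1 in the 26-week libraries, and 3 to 54 with 1 library left out. The median log2 fold change of -0.71 became 0.11 in the 26-week libraries and ranged from -0.97 to -0.49 with 1 library left out. The counts of both lists are to be read against the shares of all genes called. With the main setting, 8.22% were called lower and 9.11% higher. These shares were 11.2% and 10.4% with DESeq2, and 5.89% and 5.58% with no filter beyond 1 count. With RLE size factors, upper-quartile normalization, limma-voom and a minimum of 10 counts, 7.3% to 8.47% were called lower and 7.52% to 9.26% higher. With hemoglobin and immunoglobulin genes left out, these shares were 8.38% and 9.38%. Without BL/10 replicate 1, where 22 and 54 genes were called, they were 14.0% and 12.3%. Without NOD.B10 replicate 1, where 1 and 3 were called, they were 3.77% and 4.35%. When any other library was left out, both shares lay between the values of these fits. The share of all genes at an adjusted p under 0.01 is not given here. For none of these changes in count or median was the cause tested.

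With a replicate block, 9 of the 35 genes, all lower, and 17 of the second list were called, against 9.79% of all genes called lower and 9.05% called higher. The deviations of same-numbered libraries correlated at 0.07, 0.30 and -0.08, so the numbers were not taken to pair the mice.

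The sign of the log2 fold change turned in the 26-week libraries for 17 genes, to 0.34 for Hbb-bs, 0.61 for Hbb-bt, 0.36 for Alas2, 0.0056 for Urod, 0.19 for Cpox, 0.48 for Fech, 0.57 for Slc25a37, 0.22 for Tfrc, 0.21 for Klf1, 0.14 for Tal1, 0.15 for Kel, 0.30 for Sptb, 0.15 for Ank1, 0.26 for Slc4a1, 0.11 for Car1, 0.086 for Bpgm and 0.46 for Xpo7, none past the threshold. It also turned for Sptb with upper-quartile normalization (0.0032) and for Hba-a1 with the copies summed (-0.52). With 1 library left out, Hba-a1 ranged from -0.067 to 0.60, Rhd from -0.16 to 0.42, Steap3 from -0.040 to 0.34, Sptb from -0.27 to 0.13 and Car1 from -0.37 to 0.12, and Hba-a2 from -9.25 to -8.65. The exact permutation tests of shares and ratios could not reach a p below 0.1 with 3 mice a strain.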

Other observations

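The embryonic globins were close to the floor of detection of 3 counts in every library. For Hba-x, the embryonic alpha-like chain, the counts of NOD.B10 replicates 1, 2 and 3 were 3, 10 and 8 and those of BL/10 were 2, 3 and 3. Hbb-y, the embryonic beta-like chain, had 8, 8 and 9 counts against 6, 5 and 8, and neither passed the filter on low counts. Hbb-bh1 had 3, 15 and 7 counts against 4, 13 and 14, with a log2 fold change of -0.31 (SE 0.65, edgeR adjusted p = 0.768). The theta globins next to the alpha genes on chromosome 11 differed in level: Hbq1b was read 385, 496 and 294 times in NOD.B10 and 293, 478 and 555 times in BL/10, and Hbq1a 68, 77 and 46 times against 30, 40 and 64 times. Neither passed the test, with log2 fold changes of -0.18 (SE 0.30, adjusted p = 0.708) and 0.52 (SE 0.34, adjusted p = 0.317). Both theta genes thus had counts in all 6 libraries.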
